A study of Homo sapiens with 4 samples.

Results

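The genes described here build the membrane skeleton of the red cell and the complex around the anion exchanger band 3. They are SLC4A1, EPB42, ANK1, SPTB, EPB41, GYPB, GYPC and RHAG, that is 8 of the 20348 genes in the deposited table, and each was found by its Ensembl identifier. The list was chosen by the CPM (counts scaled to a common library total) of these genes in the same 4 libraries, so the contrast of periplocin with DMSO is described below and not tested. K562 is a human line from chronic myeloid leukemia with erythroid features, and THP-1 is a human line from acute monocytic leukemia. Both were kept for 72 h either in DMSO, the control that the titles call blank, or in 100 nM periplocin, a plant cardiac glycoside. Poly-A RNA was sequenced from 1 library per condition, with total counts between 16381158 and 20622681. Because the study states a single biological replicate, no spread between cultures can be given, no difference has a replicate check, and every interval below is a 95% interval that covers counting error alone.

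The red cell membrane is held by a mesh of spectrin under the lipid bilayer. Ankyrin ties beta spectrin to band 3, protein 4.2 steadies that link, and the Rh proteins and glycophorin B lie in the same complex. A further anchor, the junctional complex, joins spectrin and short actin filaments through protein 4.1 to glycophorin C. Inherited defects of SLC4A1, EPB42, ANK1 and SPTB cause hereditary spherocytosis, and defects of EPB41 or SPTB cause hereditary elliptocytosis. In bone marrow these genes are switched on as erythroblasts mature.

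In K562 all 8 genes were higher in the periplocin library, and 7 of them were at least 2-fold higher. Over all genes with at least 10 counts in the pair of libraries, 10.6% of 13075 were at least 2-fold higher and 12.9% at least 2-fold lower; since this contrast also chose the list, nothing is read from that difference. The median log2 ratio of the 8 genes was 1.46, beside -0.02 for all genes. Together they took 0.192% (exact binomial interval 0.190 to 0.194) of the counts in K562 DMSO and 0.580% (0.576 to 0.583) in K562 periplocin. In THP-1 the same sum was 0.00910% (0.00869 to 0.00952) in DMSO and 0.0101% (0.00963 to 0.0106) in periplocin. Most of that sum came from EPB41 and GYPC, with 1160 and 474 of 1877 counts in DMSO and 1058 and 586 of 1789 in periplocin. The median log2 ratio of the 6 genes with at least 10 counts in the THP-1 pair was -0.31, beside -0.03 for all genes. The bulk libraries cannot tell a larger share of cells that express these genes from more RNA per cell.

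**Figure D1:**
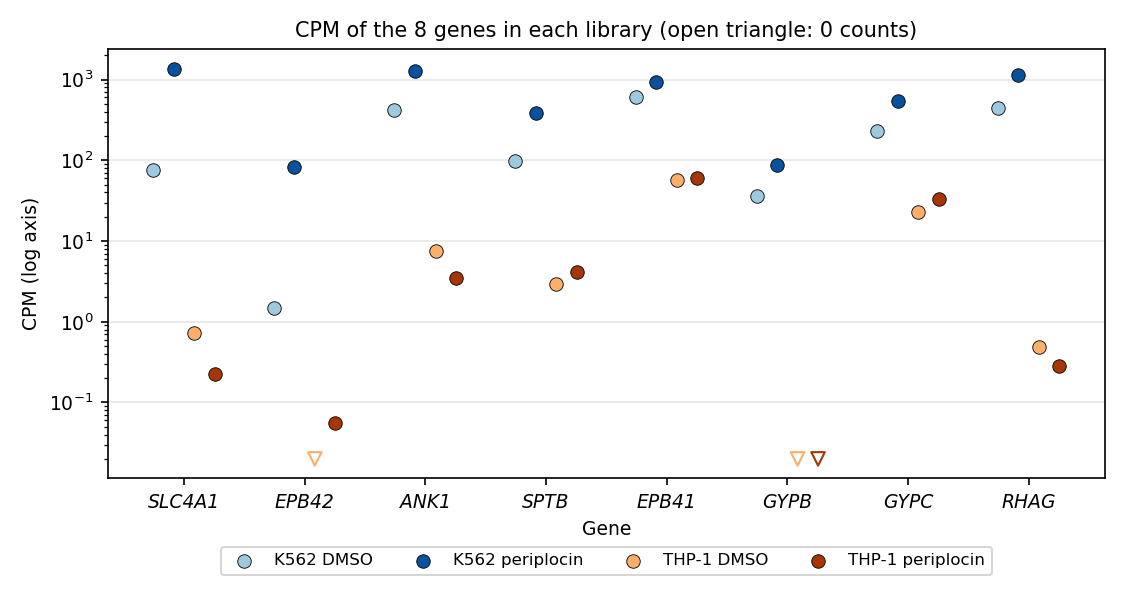
CPM of each gene (log axis) in the 4 libraries, 1 point per library and no error bar because there is 1 library per condition; open triangles mark 0 counts. Each K562 periplocin point lies above its K562 DMSO point, from 82.97 CPM for EPB42 to 1362 CPM for SLC4A1, and the THP-1 points lie below both.

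Because the genes differed together in K562, their promoters were searched for motifs that the choice of the list did not use. RefSeq promoter windows on GRCh38.p14, from 250 bases before to 50 after each start, covered 6 of the 8 genes with 9 starts. SLC4A1 and ANK1 had no window, so the motif counts do not cover them. A GATA motif, that is GATA with A or T just before it and A or G just after it, on either strand, was present in 7 of the 9 windows and in all 6 genes, beside 25.0% of 35116 windows and 29.1% of 27305 genes in all. The 2 GYPB windows overlap and hold the same matches. A CACCC-type motif, spelled CCNCNCCC on either strand, was present in 7 of 9 windows beside 56.2% of all windows; it overlaps GC boxes. The 120 bases before a start, with GATA matches in capitals, are shown for the 5 genes that hold a match there, at chr15:43221019-43221138 (EPB42, minus strand), chr6:49636840-49636959 (RHAG, minus strand), chr4:144019346-144019465 (GYPB, minus strand), chr14:64879908-64880027 (SPTB, minus strand) and chr2:126656038-126656157 (GYPC, plus strand).
EPB42: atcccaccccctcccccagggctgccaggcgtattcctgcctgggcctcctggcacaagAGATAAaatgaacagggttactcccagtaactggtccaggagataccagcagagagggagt
RHAG: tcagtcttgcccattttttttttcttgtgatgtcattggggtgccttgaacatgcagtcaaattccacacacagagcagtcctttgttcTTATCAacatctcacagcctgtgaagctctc
GYPB: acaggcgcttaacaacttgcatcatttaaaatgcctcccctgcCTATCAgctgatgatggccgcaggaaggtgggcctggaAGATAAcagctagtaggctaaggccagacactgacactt
SPTB: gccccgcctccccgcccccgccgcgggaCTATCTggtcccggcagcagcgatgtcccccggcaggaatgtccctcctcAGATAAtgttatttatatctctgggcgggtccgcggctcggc
GYPC: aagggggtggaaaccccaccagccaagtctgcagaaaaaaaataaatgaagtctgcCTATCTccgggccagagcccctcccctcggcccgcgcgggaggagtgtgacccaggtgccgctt

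Each stretch is written from 5′ to 3′ toward the start. In EPB42 the match begins 61 bases before the start, with another at 208 bases outside the stretch, and in RHAG it begins 31 bases before. GYPB has matches 77 and 39 bases before this start and SPTB 92 and 42 bases before. GYPC has a match 64 bases before its start. The match of EPB41, 189 bases before the first of its starts, lies outside the stretch length. The other EPB41 start and the other SPTB start have none. A match of letters is a description of the window and does not show binding.

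SLC4A1 encodes band 3, the chloride and bicarbonate exchanger that also carries the ankyrin complex. The gene lies at chr17:44248385-44268141 on the minus strand of GRCh38. In K562 it had 1257 counts (76.7 CPM) with DMSO and 22563 (1362 CPM) with periplocin, and in THP-1 it had 15 with DMSO and 4 with periplocin. The K562 periplocin library thus stood far above the other libraries, and both THP-1 libraries were near 0. After TMM scaling, the ratio of periplocin to DMSO in K562 was 17.6-fold (interval 16.6 to 18.7). This ratio ranked 83rd from the highest among the 13075 genes with enough counts.

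EPB42 encodes protein 4.2, which binds band 3 and ankyrin and resembles a transglutaminase without the enzyme activity. It lies at chr15:43197227-43221125 on the minus strand. In K562 its counts were 24 (1.47 CPM) with DMSO and 1374 (83.0 CPM) with periplocin, and THP-1 gave 0 and 1. The K562 ratio was 56.2-fold and ranked 17th of the 13075 genes, but with only 24 control counts its interval ran from 37.6 to 88.0. A transcript annotated as AC068724.4 shares 447 bp of exon with EPB42 on the same strand, and it had 0 counts in both K562 libraries.

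ANK1 encodes ankyrin-1, the adaptor between band 3 and beta spectrin, at chr8:41653220-41896762 on the minus strand. K562 gave 6828 counts with DMSO and 20947 with periplocin, whereas THP-1 gave 157 and 61. The ratio in K562 was 3.01-fold (interval 2.93 to 3.10). In THP-1 the order of the libraries was the opposite, with periplocin 2.20-fold lower than DMSO (interval 1.63 to 3.01).

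SPTB encodes the beta spectrin of red cells, at chr14:64746283-64879907 on the minus strand. Rounded, K562 gave 1611 counts with DMSO and 6404 with periplocin, and THP-1 gave 61 and 74. Periplocin was 3.90-fold higher in K562 (interval 3.69 to 4.13), whereas in THP-1 the ratio of 1.42 had an interval from 0.996 to 2.02 that includes no difference. SPTB shares 3408 bp of exon with PLEKHG3 on the opposite strand. PLEKHG3 had 7 and 4 counts in the K562 libraries but 577 and 716 in the THP-1 libraries. Whether strand was used in counting is not given in the sources used here, so the few SPTB counts in THP-1 cannot be told apart from reads of PLEKHG3.

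EPB41 encodes protein 4.1, which strengthens the bond of spectrin with actin, at chr1:28887091-29120046 on the plus strand. In K562 it had 10053 counts with DMSO and 15466 with periplocin, and in THP-1, 1160 and 1058. The K562 ratio of 1.51 (interval 1.47 to 1.55) was the only one of the 8 below 2-fold, and it ranked 2639th of the 13075 genes. In THP-1 the ratio was 1.06 (interval 0.979 to 1.16). The gene has 41 annotated transcripts in GENCODE release 29, and the gene-level counts cannot show which of them changed.

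The glycophorins are sialylated surface proteins. GYPB, which carries the S and s blood group antigens, lies at chr4:143996104-144019345 on the minus strand and had 599 counts in K562 DMSO, 1469 in K562 periplocin and 0 in both THP-1 libraries. Its K562 ratio was 2.41 (interval 2.19 to 2.65). GYPB is close in sequence to GYPE and other glycophorin genes. Its deposited K562 values of 598.68 and 1468.54 were not whole, whereas those of GYPE, 2617 and 3403, were. The values do not show with which gene reads were shared, so the split of reads between these genes is uncertain.

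GYPC encodes the anchor of protein 4.1 and is unrelated to the others in sequence. It lies at chr2:126655933-126696670 on the plus strand. Its K562 libraries held 3742 counts with DMSO and 9007 with periplocin, and the THP-1 libraries held 474 and 586. GYPC was 2.36-fold higher in K562 periplocin (interval 2.28 to 2.46). It was also higher in THP-1 periplocin, by 1.44-fold (interval 1.28 to 1.63).

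RHAG encodes the Rh-associated glycoprotein, a membrane channel for ammonia and the partner without which Rh antigens do not reach the surface. It lies at chr6:49605158-49636884 on the minus strand. With DMSO it had 7340 counts in K562 and 10 in THP-1, and with periplocin 18767 and 5. The K562 ratio was 2.51 (interval 2.44 to 2.58), while the THP-1 ratio of 0.584 had an interval from 0.157 to 1.88.

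**Figure D2:**
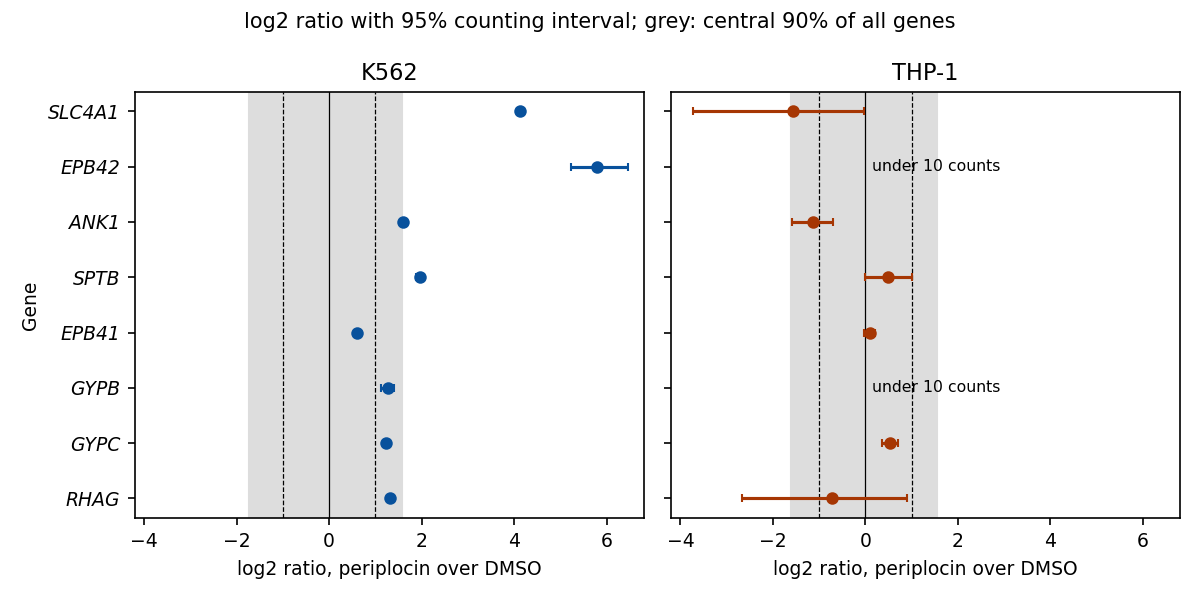
Log2 ratio of periplocin to DMSO for each gene in K562 (left) and THP-1 (right), with bars for the 95% counting interval, dashed lines at 2-fold and a grey band for the central 90% of all genes assessed. In K562 the values run from 0.60 for EPB41 to 5.78 for EPB42, and in THP-1 from -1.56 for SLC4A1 to 0.53 for GYPC.

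In THP-1, 6 of the 8 genes had at least 10 counts in the pair of libraries. None of the 6 was at least 2-fold higher in periplocin, where 9.69% of 13679 genes were. SLC4A1 and ANK1 were at least 2-fold lower, where 12.3% of genes were, and SLC4A1 rests on 15 and 4 counts. The K562 log2 ratio exceeded the THP-1 log2 ratio in all 6, by 5.70 (counting standard error 0.77) for SLC4A1, 2.72 (0.22) for ANK1, 2.04 (0.76) for RHAG, 1.46 (0.25) for SPTB, 0.71 (0.09) for GYPC and 0.50 (0.06) for EPB41. With 1 library per condition these differences could not be set against replicate error.

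The lines differed before treatment. All 8 genes were at least 2-fold higher in K562 DMSO than in THP-1 DMSO, where 22.0% of 14137 genes were. The list was chosen from the CPM in these same libraries, so nothing is read from that difference. EPB42 and GYPB, with 0 counts in THP-1 DMSO, passed the count filter through K562 alone. At a mean of at least 1 CPM the count was 7, because EPB42 fell under the filter. RHAG was 850-fold higher (interval 462 to 1773) and GYPB, with 0 counts in THP-1, was at least 231-fold higher against a floor of 3 counts per library. The smallest of these ratios were 9.14-fold for GYPC (interval 8.30 to 10.1) and 10.03-fold for EPB41 (9.44 to 10.7), genes whose products are also found outside red cells. EPB42 was at least 9.26-fold higher, a bound set by its 24 counts. The labels fit the lines: 12 of 12 erythroid markers, such as HBG1, were at least 2-fold higher in K562 DMSO. Of the monocyte markers, 9 of the 9 with enough counts, such as CSF1R and CEBPA, were at least 2-fold lower. The share of all genes at least 2-fold lower is not given here, so the monocyte count has no background beside it. The median log2 ratio of K562 DMSO to THP-1 DMSO was 8.91 for erythroid and -3.88 for monocyte markers, beside -0.04 for all genes.

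To compare genes with each other, CPM was divided by the length of the longest coding transcript. In K562 DMSO the order of these levels was RHAG at 222 CPM per kb, GYPC at 127, EPB41 at 102, GYPB at 70.2, ANK1 at 49.2, SLC4A1 at 15.5, SPTB at 9.66 and EPB42 at 0.594. In K562 periplocin RHAG still led at 563 CPM per kb, followed by GYPC at 301 and then SLC4A1 at 275, which had passed GYPB at 170, EPB41 at 155 and ANK1 at 149. SPTB at 38.0 and EPB42 at 33.6 CPM per kb came last. The ratio of the ANK1 level to the SLC4A1 level thereby went from 3.18 in DMSO to 0.543 in periplocin. RHAG went from 14.4 times the SLC4A1 level to 2.05 times. Exon length moves the order of neighbours: per kb of all annotated exons SLC4A1 ranked 2nd in periplocin, above GYPC, and ANK1 ranked 3rd in DMSO.

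**Figure D3:**
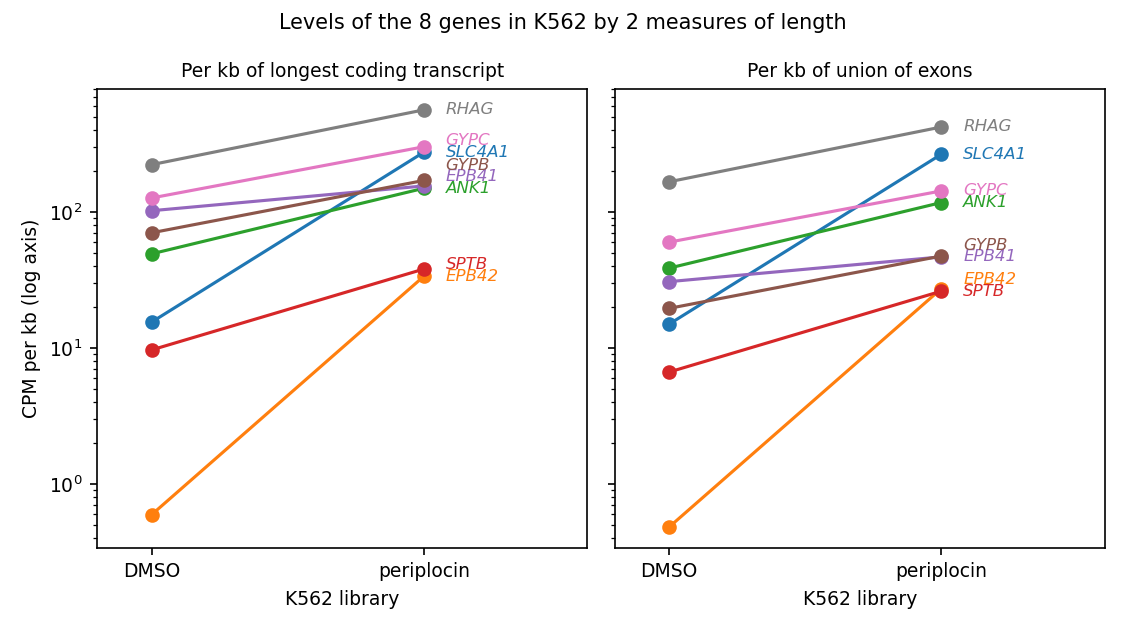
Levels of the 8 genes in CPM per kb (log axis) in the K562 DMSO and periplocin libraries, per kb of the longest coding transcript (left) and of the union of exons (right), with a line for each gene. SLC4A1 and EPB42 have the steepest lines, and RHAG is highest in both libraries by both measures.

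Genes listed as partners of the 8 gene products were described next, whether or not their proteins bind these products directly. Of 7 partners in the ankyrin and band 3 complex, 4 were at least 2-fold higher in K562 periplocin and none at least 2-fold lower, beside 10.6% and 12.9% of all genes. AQP1, the water channel, went from 80 to 2911 counts (35.7-fold), CA2, a carbonic anhydrase, from 257 to 1297 (4.96-fold), and RHD, an Rh antigen gene, from 125 to 547 (4.30-fold). RHCE, the other Rh antigen gene, went from 109 to 350 counts, and ICAM4, the Landsteiner-Wiener blood group protein, differed by less than 2-fold, from 1241 to 1760. BCAM was higher by less than 2-fold, from 104 to 142 counts. CD47 went the other way by less than 2-fold, from 2395 to 1854 counts in K562. In THP-1, CD47 was higher in periplocin, from 1331 to 1956 counts. RHD and RHCE are near copies, and reads could have been divided between them.

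Of 14 spectrin and junctional complex partners, 6 were at least 2-fold higher in K562 periplocin and 1 was lower, beside 10.6% and 12.9% of all genes. The lower gene was TMCC2, with 195 and 85 counts. By less than 2-fold, TPM1 (577 to 303 counts), ACTB (37181 to 21974) and TPM3 (8806 to 7335) were lower. ADD3, MPP1, STOM and XK were higher by less than 2-fold. SLC2A1, the glucose carrier that adducin and dematin bind, went from 2455 to 13959 (5.58-fold). ADD2, the beta adducin of red cells, went from 1939 to 6773 (3.43-fold), KEL, the Kell blood group protein, from 1140 to 3525 (3.04-fold), DMTN, dematin, from 535 to 1539 (2.82-fold) and ADD1, alpha adducin, from 3069 to 8222 (2.63-fold). The median log2 ratio was 1.65 over the 7 band 3 complex partners and 0.885 over these 14, beside -0.02 for all genes. In THP-1, 0 of the 13 junctional partners with enough counts were at least 2-fold higher and 3 were lower, beside 9.69% and 12.3% of all genes. The 3 were ADD2, from 2314 to 702 counts, TMOD1, from 641 to 234, and DMTN, which rests on 13 and 3 counts. AQP1 was the only band 3 complex partner at least 2-fold higher in THP-1, from 11 to 250 counts. CA2 was lower there by less than 2-fold, from 50155 to 22093 counts. Its THP-1 levels of 2432 and 1247 CPM were far above the 15.7 and 78.3 CPM in K562 DMSO and periplocin.

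**Figure D4:**
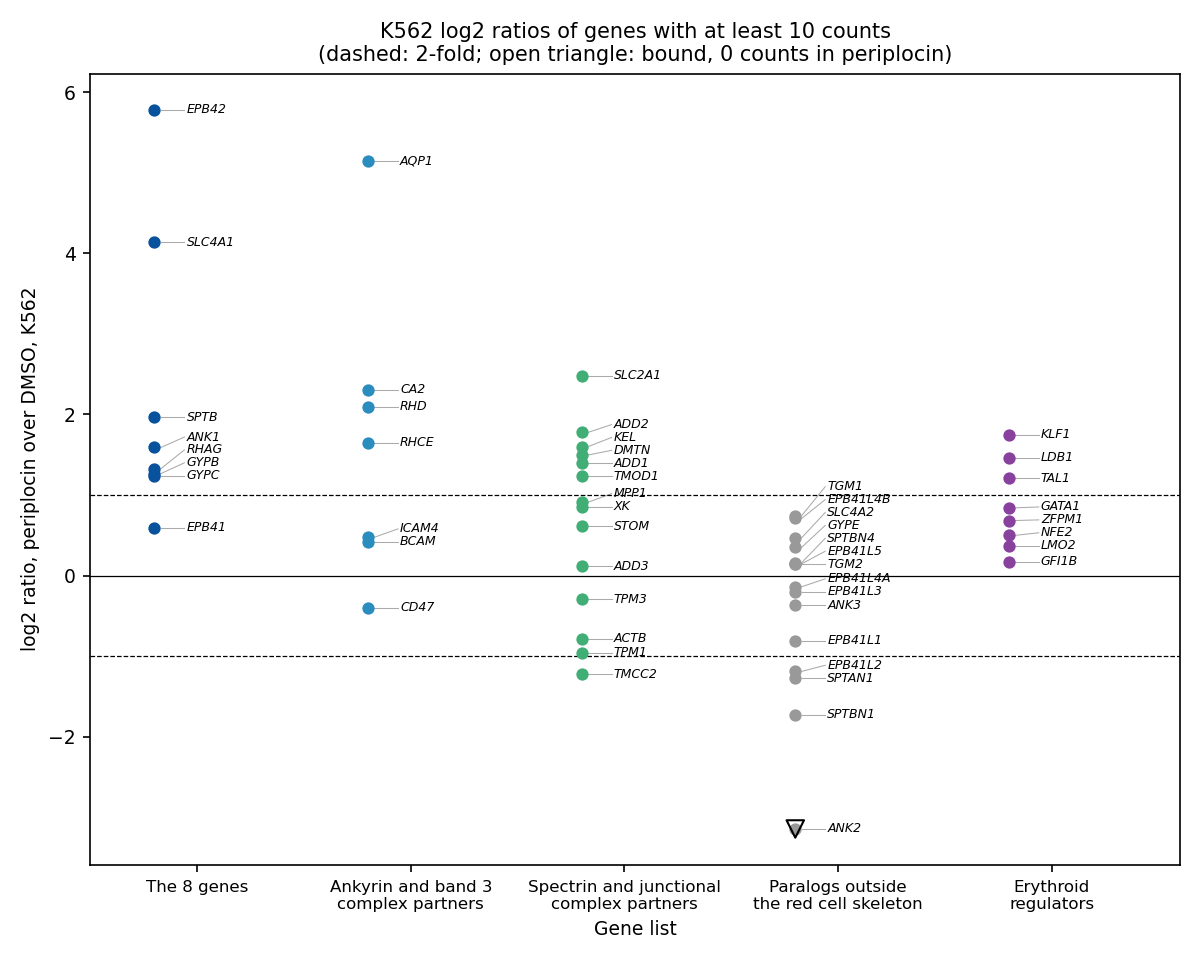
Log2 ratio of periplocin to DMSO in K562 for each gene with at least 10 counts, by list, with dashed lines at 2-fold; the open triangle is ANK2 at its bound. Of the 8 genes 7 lie above the upper dashed line, as do 4 of 7 and 6 of 14 of their partners, while none of the 15 paralogs does.

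Relatives of these genes outside the red cell skeleton were described in the same way. The list of 19 paralogs holds none for GYPC. GYPE, the one listed for GYPB, stood at 159.8 CPM in K562 DMSO, 205.5 CPM in K562 periplocin and 0.533 CPM in THP-1 DMSO. In K562, 15 of the 19 had enough counts, and 0 were at least 2-fold higher while 4 were at least 2-fold lower, beside 10.6% and 12.9% of all genes. SPTBN1, the widely expressed beta spectrin, went from 5747 to 1767 counts (log2 ratio -1.73, interval -1.81 to -1.65). SPTAN1, the widely expressed alpha spectrin, went from 1245 to 525 (-1.27, interval -1.42 to -1.12), and EPB41L2, a relative of protein 4.1, from 2064 to 923 (-1.19, interval -1.30 to -1.07). ANK2 went from 26 counts to 0, at least 8.83-fold lower. EPB41L1, another relative of protein 4.1, went from 95 to 55 (-0.81, interval -1.32 to -0.32), and SLC4A2, the widely expressed anion exchanger, differed by less than 2-fold, from 3094 to 4368. Also higher by less than 2-fold were TGM1, GYPE and TGM2, while ANK3 was lower by less than 2-fold. The intervals of EPB41L4B, SPTBN4, EPB41L5, EPB41L3 and EPB41L4A include no difference. The median log2 ratio of the 15 paralogs was -0.14, beside -0.02 for all genes.

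The balance between red cell genes and paralogs was also given as a share of summed counts, a measure that library scaling cannot alter. SPTB made up 21.9% (exact interval 20.9 to 22.9) of the counts of SPTB and SPTBN1 in K562 DMSO and 78.4% (77.5 to 79.3) in K562 periplocin. In THP-1 it made up 5.05% (3.89 to 6.45) and 3.84% (3.03 to 4.80). For SLC4A1 against SLC4A2 the shares were 28.9% (27.6 to 30.3) and 83.8% (83.3 to 84.2). ANK1, already at 94.5% (93.9 to 94.97) of the counts of ANK1, ANK2 and ANK3 in K562 DMSO, stood at 98.6% (98.4 to 98.8) in periplocin. In THP-1, where ANK1 itself was lower in periplocin, its share was 31.7% (27.6 to 35.95) in DMSO and 42.7% (34.4 to 51.2) in periplocin. Overlap of these separate intervals does not decide whether the shares differ, and the difference was not tested. EPB41 went from 77.3% (76.6 to 78.1) to 89.4% (88.9 to 89.8) of the counts of EPB41, EPB41L1, EPB41L2, EPB41L3 and EPB41L5. With EPB41L4A and EPB41L4B added, its shares were 76.3% (75.6 to 77.1) and 88.5% (88.0 to 88.98). In THP-1 the SLC4A1 share was 0.663% in DMSO and 0.157% in periplocin, and the EPB41 share 16.2% and 14.1%. Corrected for transcript length, the SPTB share in K562 was 22.0% in DMSO and 78.5% in periplocin. The correction moved other shares more. ANK1 in THP-1 then stood at 44.4% in DMSO and 55.95% in periplocin, and EPB41 in K562 at 73.5% and 88.0%.

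**Figure D5:**
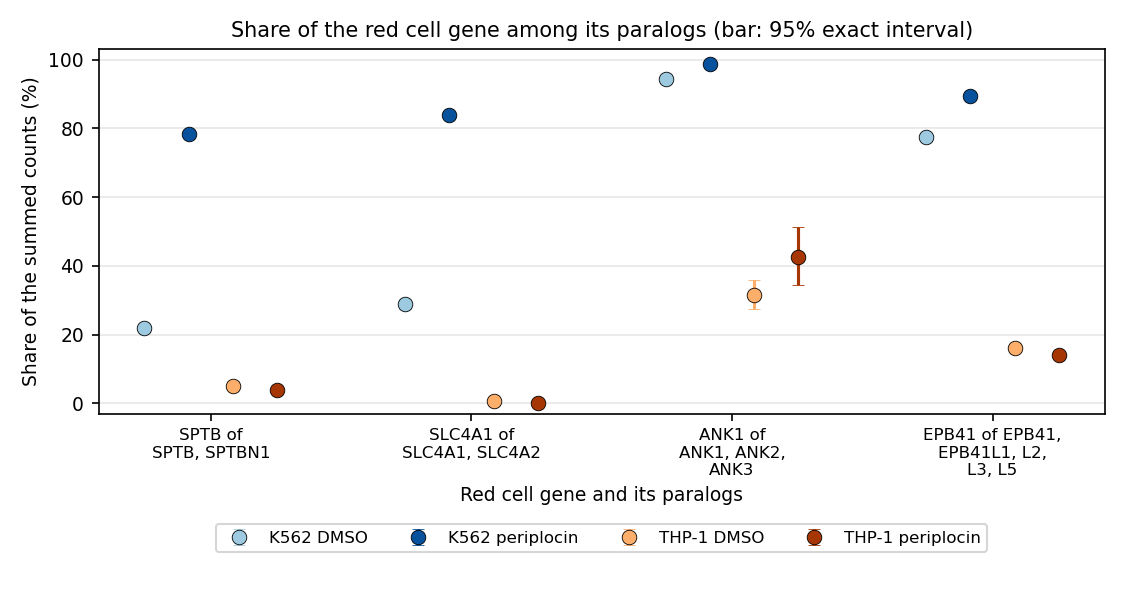
Share of the red cell gene in the summed counts of itself and its paralogs (percent) in each of the 4 libraries, with bars for the 95% exact binomial interval, which is often narrower than the point. In K562 every share is higher in periplocin than in DMSO, most of all for SPTB (21.9% to 78.4%) and SLC4A1 (28.9% to 83.8%), and in THP-1 the shares stay below those of K562.

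Genes outside the skeleton moved in K562 as well. Beside each count given here, 10.6% of all genes were at least 2-fold higher and 12.9% at least 2-fold lower. Of 12 erythroid markers, 11 were at least 2-fold higher in periplocin, and their summed level went from 3060 to 13970 CPM, with GATA1 below 2-fold. GATA1 and KLF1 are in both the marker list and the regulator list that follows, so these counts are not separate. Of 8 erythroid regulators, 3 were at least 2-fold higher, namely KLF1, from 1428 to 4883 counts, LDB1, from 2589 to 7268, and TAL1, from 3350 to 7895. The 10 monocyte markers summed to 111 CPM in K562 DMSO and 126 CPM in periplocin, and of the 8 with enough counts 2 were at least 2-fold higher and 3 lower. CD14 went from 1 to 69 counts and ITGAM from 33 to 75, while CD33 went from 362 to 127, CEBPA from 23 to 7 and FCGR1A from 11 to 2. The 10 megakaryocyte markers summed to 46.2 and 98.3 CPM, of which TUBB1 alone gave 27.4 and 87.3 CPM, with PF4 and SELP at 0 counts in each K562 library. Of the 5 with enough counts, TUBB1 and VWF, the latter from 2 to 12 counts, were at least 2-fold higher, and ITGA2B, from 126 to 56, and GP6, from 109 to 47, were lower. The part of these markers in the results was not tested. Mitochondrially encoded genes took 5.62% of the K562 counts with DMSO and 2.07% with periplocin, against 5.24% and 3.93% in THP-1. With those genes left out, 7 of the 8 genes were again at least 2-fold higher in K562, with a median log2 ratio of 1.45.

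Among 10903 other genes with at least 10 CPM in some library, those whose centred log2(CPM + 1) values over the 4 libraries lay closest to the median profile of the 8 genes were MYL4 (Euclidean distance 0.212), SORCS1 (0.257), GP1BB (0.539), TNNI3 (0.582) and GULP1 (0.589). Within the list SPTB lay nearest to that profile at 0.340, and RHAG lay farthest at 3.38. Only 4 points define each profile, and these distances are a description.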

How the data were processed

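RNA from K562 and THP-1 cells in DMSO or periplocin was sequenced as 1 poly-A library per condition. The authors deposited unnormalized expected counts, 1 column per library, of which 87.4% to 88.3% are whole numbers. The submitters' processing notes name HISAT2, StringTie 1.3.1 and hg38, without roles. Strand use and the annotation are not given in the sources used here. Expected counts were rounded to whole numbers. Identifiers were paired with symbols for 20310 of 20348 genes, and positions and lengths came from GENCODE release 29 on GRCh38.

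TMM factors over the 4 libraries (0.955 to 1.05) came from edgeR 4.0.16 in R 4.3.3. Log2 ratios used a prior count of 0.5 and genes with at least 10 counts in the pair, and fold ratios were given with exact Clopper-Pearson 95% intervals that cover counting error only. No p-value was computed, since there is 1 library per condition. A count of 3 or fewer was the floor for bounds. Promoters came from RefSeq. The ratios were tested on simulated data. Python 3.11.15 with numpy 2.4.6, pandas 2.3.3, scipy 1.17.1 and matplotlib 3.10.9 was used.

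The members and lists were chosen with earlier results of these data known. The paralog shares and the level ratios of partners were formed after the values were seen. Named genes were all 8 members, and from each other list up to 5 genes with the largest K562 log2 ratio in either direction. Others named beside them were chosen after their values were seen. They were SLC4A2, GYPE, TMCC2, TMOD1, TPM1, TPM3, ACTB, ADD3, MPP1, STOM, XK, EPB41L4A, EPB41L4B, overlapping genes and further markers. CD47, BCAM, TGM1, TGM2, ANK3, SPTBN4, SPTBN5, EPB41L3 and EPB41L5 were also named in this way. Some genes of the lists are not reported here and were left out of every list count. Alternatives were total counts or DESeq2 1.42.0 size factors in place of TMM, no mitochondrial genes, other count filters, a prior count of 2, a 4-fold threshold, unrounded counts, exon length in place of transcript length, and a shorter promoter window; the shares over every listed paralog were added after the data were seen. The table holds 0 columns that were not used.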

Additional observations from a re-analysis of the deposited data

Results flagged for a closer look

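With TMM scaling, SLC4A1 and ANK1 differed in opposite directions in the lines, each beyond its counting interval. For SLC4A1 in THP-1 that log2 interval ran from -3.73 to -0.03, so it only just left out no difference. The THP-1 log2 ratio of SLC4A1 was -1.56 with TMM and -1.52 with DESeq2 size factors. That shift is enough to bring no difference inside the interval. The K562 log2 ratio minus the THP-1 log2 ratio was 5.70 for SLC4A1 and 2.72 for ANK1. Each direction rests on 1 pair of libraries, the difference was not tested, and in THP-1 SLC4A1 had 15 counts in DMSO and 4 in periplocin.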

How the results depend on the processing

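No paired analysis was possible because there is 1 library per condition and the labels carry no replicate numbers. With total counts, DESeq2 size factors, no mitochondrial genes, a prior count of 2 or unrounded counts, 7 of the 8 genes were at least 2-fold higher in K562. Over those settings and the filters, the K562 log2 ratio ranged from 4.13 to 4.15 for SLC4A1, 5.70 to 5.79 for EPB42 and 0.58 to 0.61 for EPB41, and the ratios of all other members kept their direction.

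At 4-fold, 2 of the 8 genes, SLC4A1 and EPB42, were higher in K562 and 0 were lower in THP-1, with 3 partners of the band 3 complex, 1 junctional partner and 0 erythroid regulators higher and 0 junctional partners and 1 paralog lower in K562. At that threshold, of all 13075 genes with enough counts in K562, 408 were higher and 449 lower. Of 13679 genes in THP-1, 428 were higher and 403 lower. Without the filter on counts, 2641 genes were at least 2-fold higher in K562 and 2192 in THP-1, among them 1 paralog (SPTBN5, 0 and 1 counts) and 1 member in THP-1 (EPB42, 0 and 1 counts). At a mean of 1 CPM, 1 member was lower in THP-1, because SLC4A1 fell under the filter. The numbers of genes assessed without the count filter and at 1 CPM are not given here, so those counts have no share beside them. With the window of 100 bases before to 50 after the start, 6 of 9 windows held a GATA motif, beside 12.2% of all windows, and 4 a CACCC-type motif, beside 41.98%. Depth limits the THP-1 values of SLC4A1, RHAG, EPB42 and GYPB, which had 15 counts or fewer in each library. With every listed paralog in the sums, an alternative chosen after seeing the data, the EPB41 shares in K562 were 76.3% and 88.5%, and the other shares stayed within their intervals.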
